A study of Mus musculus with 6 samples.

Results

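Heat shock chaperones were examined in mouse satellite cells, which are muscle stem cells, in 3 libraries homozygous for the Lmna Δ8-11 allele and 3 wild-type libraries. The 50 genes, of 39059 in the files, code for the cytosolic and mitochondrial heat shock proteins, their co-chaperones and a pair of heat shock factors. They were selected from known families with earlier results of this same contrast in view, so their differences between genotypes are given below as a description without p-values, and nothing rests on the number that passed the threshold. The homozygous mice (Lmna Δ8-11 -/-) and the wild-type mice (+/+) shared the C57BL/6J strain background and an age of postnatal day 19. Satellite cells came from hind-limb muscle by fluorescence-activated sorting, and total RNA was extracted from fresh cells of 3 mice per condition. The labels do not tie each library to an animal, so the tests measure the spread between these libraries, which may in part be technical. The labels give the allele as the genotype of the animals and name no Cre driver and no drug or heat treatment.

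Heat shock proteins bind unfolded or nascent proteins and keep them from aggregating. HSP70 proteins work in cycles of ATP hydrolysis that HSP40 (J-domain) proteins start and nucleotide exchange factors such as HSP110 and BAG proteins end, and HSP90 receives selected clients from HSP70 through co-chaperones. Stress-inducible members are transcribed when heat shock factor 1, HSF1, binds heat shock elements, alternating copies of the short sequence GAA and its reverse complement TTC. In muscle, small heat shock proteins and BAG3 are known for holding contractile and cytoskeletal proteins in shape. Dissociating and sorting muscle is itself known to induce heat shock and immediate early genes in freshly isolated satellite cells.

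Promoter sequences are shown first for the genes at which the description by heat shock elements, given further on, turns. Windows from RefSeq on GRCm38.p6 ran from 250 bases before to 50 bases after each annotated start, and 40 of the 50 genes had at least 1. Of each window, the 150 bases before the start and the first 30 after it are printed in the direction of transcription, with the heat shock element units and the bases between them in capitals. Chordc1 (chr9:18292117-18292296, plus strand), Hspe1 (chr1:55087998-55088177, plus strand) and Hsph1 (chr5:149636286-149636465, minus strand) are shown for their runs of 3 or more units. Dnajb6 (chr5:29735748-29735927, plus strand) has such a run too and is shown because its level barely differed between genotypes. Hspa1a (chr17:34972127-34972306, minus strand), Hspa1b (chr17:34959209-34959388, minus strand) and Hspb1 (chr5:135887769-135887948, plus strand) are shown for their pairs of units.
Hspe1: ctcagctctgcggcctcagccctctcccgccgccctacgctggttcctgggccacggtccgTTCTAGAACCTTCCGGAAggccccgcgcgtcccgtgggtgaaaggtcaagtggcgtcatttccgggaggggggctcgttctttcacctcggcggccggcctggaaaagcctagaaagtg
Chordc1: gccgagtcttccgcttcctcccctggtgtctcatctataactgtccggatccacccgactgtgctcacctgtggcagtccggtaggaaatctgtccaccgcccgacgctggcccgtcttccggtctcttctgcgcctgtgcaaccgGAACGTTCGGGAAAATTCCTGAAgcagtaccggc
Hsph1: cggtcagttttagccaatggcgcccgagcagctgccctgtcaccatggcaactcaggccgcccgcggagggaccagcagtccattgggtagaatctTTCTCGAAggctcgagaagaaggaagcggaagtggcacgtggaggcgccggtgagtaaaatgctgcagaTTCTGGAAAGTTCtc
Dnajb6: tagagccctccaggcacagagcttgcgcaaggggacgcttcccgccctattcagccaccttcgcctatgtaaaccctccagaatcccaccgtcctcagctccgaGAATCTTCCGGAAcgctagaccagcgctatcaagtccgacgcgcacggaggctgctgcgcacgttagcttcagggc
Hspa1a: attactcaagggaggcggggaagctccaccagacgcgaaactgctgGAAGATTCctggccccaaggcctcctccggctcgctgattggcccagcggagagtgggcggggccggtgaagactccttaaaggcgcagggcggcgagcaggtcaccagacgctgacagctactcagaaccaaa
Hspa1b: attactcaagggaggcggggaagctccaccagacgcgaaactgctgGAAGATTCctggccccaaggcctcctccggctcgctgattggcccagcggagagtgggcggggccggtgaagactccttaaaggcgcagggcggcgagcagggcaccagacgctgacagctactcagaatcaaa
Hspb1: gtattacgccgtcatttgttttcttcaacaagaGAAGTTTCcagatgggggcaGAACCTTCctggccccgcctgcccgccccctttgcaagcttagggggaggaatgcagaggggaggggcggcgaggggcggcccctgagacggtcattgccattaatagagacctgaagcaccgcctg
The printed Hspa1a and Hspa1b stretches differed at 2 bases, and their whole windows were 98.7% identical (296 of 300 bases). The Hspe1 window shared 285 bases with the window of Hspd1, which is transcribed from the opposite strand, so 1 run of 4 units lies in the windows of both genes. In Chordc1 the capitals cover 23 bases across the annotated start. In Hsph1 the run of 3 units begins at base 16 after the start and a separate pair of units lies upstream.

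Reads assigned to genes numbered 6613636 to 9552751 per library. The 50 genes together took 1.13, 1.73 and 1.36% of gene reads in homozygous replicates 1, 2 and 3, against 3.51, 3.00 and 2.83% in wild-type replicates 1, 2 and 3. Lmna, the targeted gene, was at 435, 374 and 449 CPM (counts-per-million-reads on scaled totals) in homozygous replicates 1 to 3 and at 839.5, 937 and 1054 CPM in the wild-type replicates, 2.25-fold lower in the mutants. Gene totals cannot show whether the reads left lie outside the deleted exons 8 to 11. Libraries also differed within genotypes: reads from Y-linked genes numbered 4498, 3074 and 4831 in homozygous replicate 2 and wild-type replicates 2 and 3 and at most 3 elsewhere, and homozygous replicate 2 and wild-type replicate 2 held 13027 and 13900 CPM (on unscaled gene totals) of Gm42418, a gene that overlaps ribosomal RNA sequence, against at most 1797 CPM in the others.

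All 50 genes passed the filter on low counts, and calls are those of edgeR's quasi-likelihood test at a Benjamini-Hochberg adjusted threshold of 0.05 over 14099 genes. 27 of the 50 were called lower in the homozygous libraries, where 11.5% of all tested genes were called lower. 3 were called higher, against 9.67% of all tested genes, and 20 were not called. For 29 of the 50, every homozygous library lay below every wild-type library, which held for 20.5% of tested genes. The median log2 fold change over the 50 genes was -0.44, and over all tested genes it was -0.0038. Because these genes were taken up with this contrast known, the counts describe the list and do not test it. In a bulk sample, fewer cells of a type and less RNA per cell cannot be told apart.

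**Figure D1:**
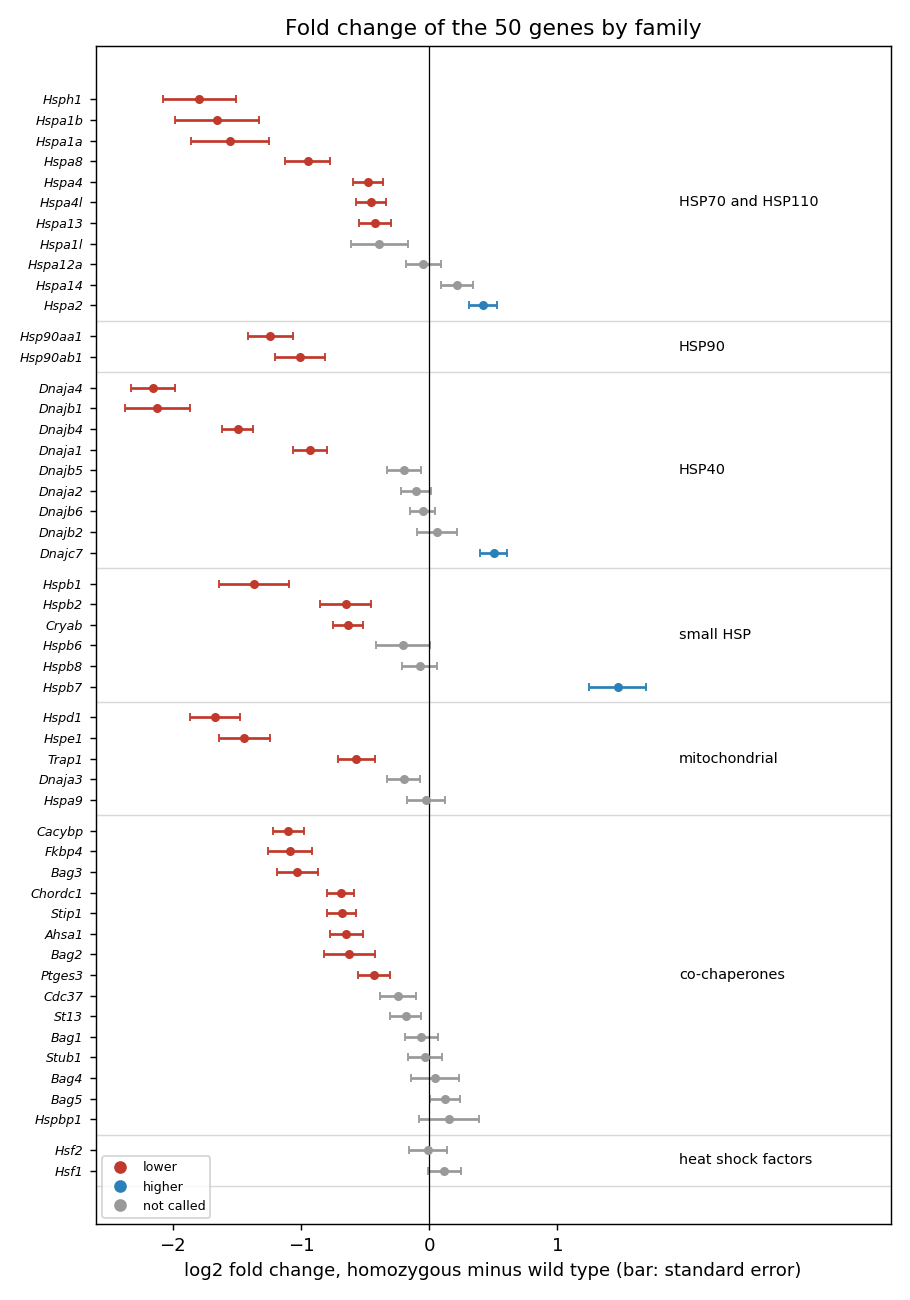
Log2 fold changes (homozygous minus wild type, x axis) of the 50 genes, grouped by family, with standard errors derived from the test statistic as bars and colours for the call over 14099 genes. 27 genes are called lower, 3 (Hspa2, Dnajc7 and Hspb7) are called higher, and both heat shock factors sit near 0.

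Among the 11 HSP70 and HSP110 genes, 7 were called lower, 1 higher and 3 were not called, with a median log2 fold change of -0.45. Hspa1a and Hspa1b, the classical stress-inducible HSP70 genes, lie next to each other on chromosome 17 (34969190 to 34972156 and 34956436 to 34959238, GRCm38). Hspa1a was at 624, 1625 and 962 CPM in homozygous replicates 1, 2 and 3 and at 3768, 3109 and 2548 CPM in wild-type replicates 1, 2 and 3. Hspa1b was at 786, 2185 and 1256 CPM in the homozygous libraries and 5332, 4452 and 3515 CPM in the wild-type libraries. For both genes the groups did not overlap, and homozygous replicate 2 was the highest mutant library. The log2 fold changes were -1.55 for Hspa1a and -1.65 for Hspa1b (SE 0.31 and 0.33). Their transcripts are 93.6% identical and share 58.8% of the 50-base stretches of Hspa1a, so how reads were split between them is uncertain. Their sum was 1410.0, 3810.1 and 2219 CPM in the homozygous libraries against 9101, 7561 and 6063 CPM in the wild-type libraries, a 3.05-fold difference of the means. The split does not touch this sum. Reads without a unique alignment, 19.7 to 24.0% of all reads per library, were assigned to no gene. The sum may therefore lack reads from the shared stretches.

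Hsph1, the inducible HSP110 that acts as a nucleotide exchange factor for HSP70, was the family member with the lowest fold change. It was at 270.2, 616 and 316 CPM in the homozygous libraries and 1629.8, 1194 and 1348 CPM in the wild-type libraries, again without overlap, with a log2 fold change of -1.79 (SE 0.28). Hspa8, the constitutive HSC70, was at 2777, 3896 and 3162 CPM against 6592, 6454 and 5895 CPM (-0.95, SE 0.18). Its wild-type libraries lay close together and all of them were above the highest mutant library. 3 members with smaller differences were also called lower, namely Hspa4 and Hspa4l, further HSP110-type proteins, at -0.48 and -0.45, and Hspa13, a microsomal HSP70, at -0.42. Hspa4 lost its call without homozygous replicate 3 or wild-type replicate 2, Hspa4l kept it on leaving out homozygous or wild-type replicate 2 and no other library, and Hspa13 kept it on leaving out homozygous replicate 1 and no other. Hspa2, an HSP70 best known from the testis, ran the other way at 132, 132 and 138 CPM against 92.9, 98.9 and 109 CPM (0.42, SE 0.11). Its groups did not overlap, but it was not called without any 1 of homozygous replicates 1 or 3 or wild-type replicates 1 or 2. Hspa1l, the neighbour of Hspa1a, was not called (-0.39) and had the lowest level per length of all 50 genes in wild type, with 3.68 ± 0.812 TPM (transcripts-per-million-transcripts, reads per exon length, SD, n = 3). Hspa12a and Hspa14 were not called, at -0.04 and 0.22.

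Both cytosolic HSP90 genes were called lower. Hsp90aa1, the stress-inducible alpha form, was at 1709, 2442 and 1817 CPM in the homozygous libraries and at 4897, 4617 and 4562 CPM in the wild-type libraries. Hsp90ab1, the constitutive beta form, was at 1018, 1518 and 907 CPM against 2388, 2250.1 and 2275 CPM. The wild-type libraries were tight for both genes and did not overlap the mutants. Log2 fold changes were -1.24 (SE 0.18) for Hsp90aa1 and -1.01 (SE 0.20) for Hsp90ab1, and their summed level was 3138 ± 713 CPM in the mutants against 6997 ± 251 CPM in wild type (SD, n = 3 each).

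Of the 9 HSP40 genes, 4 were called lower, 1 higher and 4 were not called, with a median of -0.19. The lowest fold changes among the 50 genes were found here. Dnaja4 was at 37.9, 59.5 and 40.7 CPM in homozygous replicates 1 to 3 and 218, 205 and 195 CPM in wild-type replicates 1 to 3. Dnajb1, the main inducible HSP40 partner of HSP70, was at 264, 506 and 315 CPM against 1839, 1666 and 1212 CPM. Each was more than 4-fold lower in the mutant means (4.47-fold for Dnaja4 and 4.35-fold for Dnajb1), and no mutant library reached the lowest wild-type library. The log2 fold changes were -2.15 (SE 0.17) and -2.12 (SE 0.25). Dnaja4 shares 1581 of its 3589 exonic bases with Wdr61 on the opposite strand, so its count is uncertain to that extent where strand was not used in counting.

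Dnajb4, a relative of Dnajb1 found in muscle, was at 155, 179.9 and 153 CPM against 458, 478 and 439 CPM, with little spread within either genotype (-1.49, SE 0.12). Dnaja1, an abundant farnesylated HSP40, was at 625, 710.1 and 656 CPM against 1312, 1176 and 1310.2 CPM (-0.93, SE 0.13). The mutant libraries agreed closely for both, and homozygous replicate 2 stood less apart than for Dnajb1. Dnajc7, a J-domain protein with tetratricopeptide repeats that binds both HSP70 and HSP90, was called higher at 101, 107 and 89.9 CPM against 71.9, 67.4 and 70.6 CPM (0.50, SE 0.11). Dnaja2, Dnajb2, Dnajb5 and Dnajb6 were not called, with log2 fold changes from -0.19 to 0.06.

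**Figure D2:**
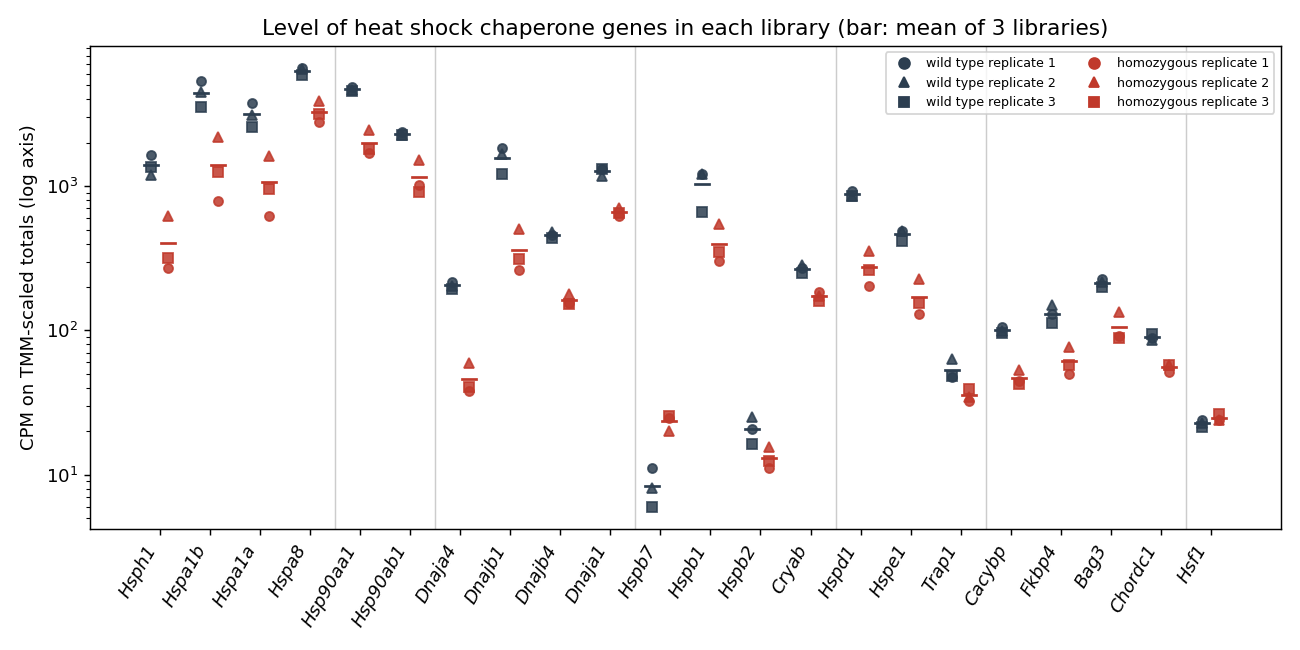
Level of 22 of the genes in each library (y axis, CPM on TMM-scaled totals, log axis), with symbols for the replicate, colours for the genotype and a bar at the mean of 3 libraries. The wild-type libraries of Hsph1, Dnaja4, Dnajb1 and Hspd1 lie clear above the mutants, homozygous replicate 2 (triangle) is mostly the highest mutant, and Hspb7 runs the other way.

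The 6 small heat shock proteins, which hold unfolding proteins without ATP, did not move together: 3 were called lower, 1 higher and 2 were not called. Hspb1, HSP27 in the human nomenclature, was at 301, 546 and 348 CPM in the homozygous libraries and 1207, 1214 and 658 CPM in the wild-type libraries (-1.36, SE 0.27). Wild-type replicate 3 was much lower than the other wild-type libraries and close to homozygous replicate 2, yet the groups did not overlap. Cryab, alpha-B crystallin, was at 184, 174 and 159 CPM against 271, 283 and 250.4 CPM (-0.63, SE 0.12). Hspb2, its head-to-head neighbour with 252 exonic bases in common on the opposite strand, was at 11.2, 15.6 and 12.5 CPM against 20.9, 25.2 and 16.2 CPM (-0.65, SE 0.20). The Hspb2 groups nearly met, since homozygous replicate 2 was just under wild-type replicate 3, and its call was lost without any 1 of homozygous replicates 1 or 3 or wild-type replicates 1 or 2.

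Hspb7, the cardiovascular small heat shock protein of heart and muscle, had the highest fold change of the 50 genes. It was at 24.7, 20.2 and 25.6 CPM in the homozygous libraries and 11.2, 8.09 and 5.95 CPM in the wild-type libraries (1.47, SE 0.22). Every mutant library was above every wild-type library, and the gene stayed called without any 1 library. Hspb6 and Hspb8 were not called (-0.20 and -0.07), and their groups overlapped.

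Mitochondrial chaperones were divided. Hspd1 and Hspe1, which form the HSP60 and HSP10 folding chamber of the matrix, lie head to head on chromosome 1 and were both called lower. Hspd1 was at 204, 356 and 264 CPM in the homozygous libraries and 923, 852 and 849.8 CPM in the wild-type libraries. Hspe1 was at 129.5, 228 and 154 CPM against 489, 487 and 417 CPM. The pair showed the same order of mutant libraries, replicate 2 highest and replicate 1 lowest, and log2 fold changes of -1.67 (SE 0.19) and -1.44 (SE 0.20). Trap1, the mitochondrial HSP90, was at 32.6, 34.5 and 39.4 CPM against 47.3, 63.1 and 48.0 CPM (-0.57, SE 0.15), and its call was lost without homozygous replicate 1 or wild-type replicate 2. Hspa9, the mitochondrial HSP70 mortalin, was not called and its groups overlapped, at 309, 228 and 289.6 CPM against 243, 297 and 302 CPM (-0.03, SE 0.15). Dnaja3, the J-domain partner of Hspa9, was not called either (-0.20).

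Of the 15 co-chaperones, 8 were called lower and 7 were not called, with a median of -0.43. Cacybp, which binds calcyclin and the ubiquitin ligase SIAH1, was at 44.3, 53.5 and 42.8 CPM in the homozygous libraries and 106, 98.9 and 96.4 CPM in the wild-type libraries (-1.10, SE 0.12). Fkbp4, the immunophilin FKBP52 of steroid receptor complexes, was at 49.5, 77.0 and 57.7 CPM against 129.8, 150.1 and 112 CPM (-1.09, SE 0.17). Bag3, which links HSP70 and small heat shock proteins to selective autophagy and was the most abundant of these 15 per length, was at 91.6, 134 and 89.2 CPM against 226, 215 and 201 CPM (-1.03, SE 0.16). In these 3 genes the mutant means were about 2-fold lower (ratios of 2.15, 2.13 and 2.04) with no overlap.

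Chordc1, an HSP90-binding protein, was at 51.3, 57.6 and 58.0 CPM against 88.6, 85.9 and 94.9 CPM (-0.69, SE 0.11), with little spread among the mutants. The HSP90 co-chaperones Stip1 (HOP, which bridges HSP70 and HSP90), Ahsa1 (the activator of the HSP90 ATPase) and Ptges3 (p23) were called lower at -0.68, -0.64 and -0.43. Bag2, an inhibitor of the ubiquitin ligase CHIP, was called lower at -0.62 from 5.89 ± 0.623 against 9.12 ± 0.966 CPM (SD, n = 3). It had the lowest counts of the 27 and kept its call on leaving out homozygous replicate 2 and no other library, and Ptges3 kept its call on leaving out homozygous replicate 1 and no other. The co-chaperones that were not called were Bag1, Bag4, Bag5, St13, Cdc37 (the kinase-specific HSP90 partner), Stub1 (CHIP itself) and Hspbp1, at log2 fold changes from -0.24 to 0.16. The BAG family was split, with Bag3 and Bag2 called and the other members near 0.

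The heat shock factors themselves showed little difference. Hsf1 was at 24.0, 23.8 and 26.2 CPM in homozygous replicates 1 to 3 and 24.0, 22.7 and 21.4 CPM in wild-type replicates 1 to 3 (0.12, SE 0.13). Hsf2 was at 29.1, 23.3 and 22.6 CPM against 25.1, 23.0 and 27.1 CPM (-0.01, SE 0.15). The groups overlapped for both genes. These are transcript levels, and HSF1 activity, which is set by its trimerization and phosphorylation, was not measured.

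Levels per length put the 50 genes over a wide range. In wild type, Hspa1b stood highest at 2776 ± 738 TPM, then Hspa8 at 2570.3 ± 349, Hsp90aa1 at 2096 ± 324, Hspa1a at 1860.5 ± 487 and Hspb1 at 1724 ± 519 TPM (SD, n = 3). Neighbours in this order differed by less than 1 SD of either gene, apart from Hsp90aa1 below Hspa8. In the mutants the order of the leaders was Hspa8 at 1202 ± 234, Hsp90aa1 at 796 ± 161, Hspa1b at 795 ± 396 and Hspb1 at 608 ± 196 TPM. Hspa1b stood above Hspa8 in the wild-type means, by less than 1 SD of either, and below it in the mutant means, by more than 1 SD of Hspa8. The levels of Hspa1a and Hspa1b may lack reads from their shared stretches, so their places in this order are uncertain. Hsf1 and Hsf2 were among the lowest, at 5.61 ± 0.856 and 4.60 ± 0.926 TPM in wild type.

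The mutant libraries were not alike. Homozygous replicate 2 was the highest mutant library for 21 of the 27 genes called lower, and for all 14 with a log2 fold change of -1 or below. It was the highest for 5166 of all 14099 tested genes. It was also the mutant library with high Y-linked and Gm42418 reads. Over those 14 genes its level was a median of 1.55 times the mean of the other mutant libraries (1.17 for Dnajb4 to 2.14 for Hspa1b), over the other 13 it was 1.05 times, and over all 14099 genes 0.996 times. Relative to the wild-type mean, the 27 genes had a median log2 level of -1.18, -0.69 and -1.17 in homozygous replicates 1, 2 and 3, and of 0.05, 0.03 and -0.08 in wild-type replicates 1, 2 and 3. Wild-type replicate 3 was the lowest wild-type library for 17 of the 27. Without homozygous replicate 2, the log2 fold change was -2.25 for Hsph1, -2.12 for Hspa1b and -2.44 for Dnajb1. Without homozygous replicate 1 the values were -1.57, -1.36 and -1.93, and the fits that left out another library lay between.

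**Figure D3:**
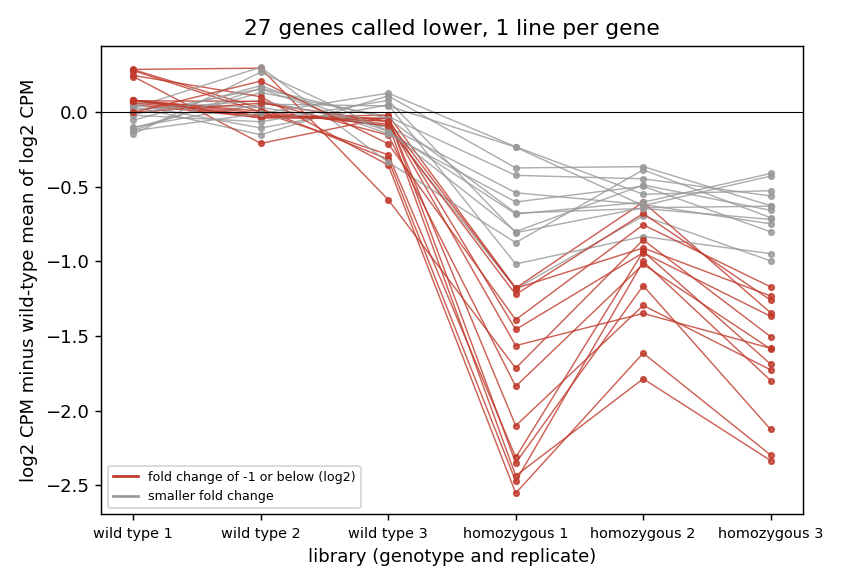
Log2 CPM of the 27 genes called lower, minus the wild-type mean (y axis), in each of the 6 libraries (x axis), with 1 line per gene joining its values. Homozygous replicate 2 lies nearest to wild type for the genes with fold changes of -1 or below (red), and the medians over all 27 are -1.18, -0.69 and -1.17 in the homozygous libraries.

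Transcripts of other kinds also differed between genotypes, and some of them with homozygous replicate 2. Their part in the chaperone differences was not tested, and counts of called markers stand beside 11.5% of all tested genes called lower and 9.67% called higher. Markers of satellite cells were called lower for 6 of 10 genes, with summed levels of 1667, 2389 and 1716 CPM in homozygous replicates 1 to 3 against 2872 to 2972 CPM in wild type, and none was at 0 in a whole group. Pax7, the defining transcription factor of satellite cells, was at 23.0, 52.2 and 19.4 CPM against 86.6, 66.1 and 74.7 CPM, so homozygous replicate 2 again lay nearest to wild type. Markers of fibro-adipogenic progenitors were called lower for 6 of 9 genes and higher for 1, with sums of 1477 to 2324 CPM against 4559.7 to 4861 CPM. Col3a1, a collagen of those cells, was at 226, 899.8 and 307 CPM against 2770.0, 2780.4 and 2367 CPM, with homozygous replicate 2 the highest mutant library here too. All 5 tested of 7 adipocyte markers were called higher, with a median log2 fold change of 5.58. Their list summed to 736 to 1392 CPM against 297 to 420 CPM, a smaller difference than that median. Lep was at 0 in every homozygous library but did not pass the filter on low counts, so no difference between genotypes is read from it. Erythroid markers, 3 of 5 called lower, summed to 269, 876 and 215 CPM in homozygous replicates 1 to 3 against 887 to 1575 CPM. Among the other lists, 3 of 10 tested markers of muscle fibres and 4 of 8 of Schwann cells were called lower, and 2 of Schwann cells and 1 of 7 of macrophages higher. Of 9 endothelial markers, none was called, and their sums overlapped at 461 to 784 CPM in homozygous against 518 to 793 CPM in wild-type libraries. Smooth muscle and pericyte markers summed to 13471 to 14198 CPM against 12344 to 17402 CPM, with 1 of 12 called lower and 3 higher. That list includes Des, and Notch3 which is also among the satellite cell markers. The share of each gene in the sum is not given, so the sum does not show which cells the transcripts came from. Of the 24 immediate early genes that dissociation is known to induce, 5 were called lower, 4 higher and 15 were not called, with sums of 15687 to 16933 CPM against 19541 to 20159 CPM.

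Within that immediate early list the directions were mixed. The genes named from it were picked after their values were seen and are given as a description, without p-values. Egr2 was at 116, 169 and 106 CPM in the homozygous and 262, 270.0 and 318 CPM in the wild-type libraries, and Jun at 894, 1323 and 1072 against 2285, 2024 and 1963 CPM (log2 fold changes of -1.12 and -0.93). Fos was not called (3166, 3646 and 2975 against 4278, 3952 and 3946 CPM). Socs3 and Ier3 were called higher, with log2 fold changes of 0.54 and 0.46.

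Heat shock elements in the promoter windows were read as alternating GAA and TTC cores with 2 free bases between them. Pairs of units were GAANNTTC or TTCNNGAA, runs of 3 GAANNTTCNNGAA or TTCNNGAANNTTC, and longer runs continued the alternation. Each pair is its own reverse complement in form and runs of 3 in the opposite order are each other's, so both strands are covered, and the pairs within a longer run count as matches too. Of the 40 genes with a window, 17 (42.5%) held a pair, against 16.97% of 27025 genes in the whole RefSeq table and 13.7% of genes tested here. A run of 3 was held by 5 of the 40 (Hsph1, Hspd1, Hspe1, Chordc1 and Dnajb6), against 0.662% of all genes in the table. Runs of 4 were found in Hspd1, Hspe1 and Chordc1 and in 8 genes of the whole table, these 3 among them. Runs were searched for up to 4 units, and the run of Chordc1, 2 overlapping matches of 4, is longer.

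Of the 17 genes with a pair, 12 were called lower, with a median log2 fold change of -1.09, and of the 23 without, 9 were called lower, with a median of -0.19. Over all tested genes with a window the shares were close to each other: 178 of 1426 genes with a pair (12.5%) and 1012 of 8949 without (11.3%) were called lower. These counts are a description: the genes were taken up with their response known, known heat shock genes are known for such elements, and the Hspd1 and Hspe1 windows share their sequence. Log2 fold changes ran from -2.15 to -0.03 among the genes with a pair and from -2.12 to 1.47 among those without. An association gene by gene was not tested. Units with a changed base were not searched for, so longer imperfect runs are missed. Dnajb6, with a run of 3 beginning 46 bases before its start, was at 96.8, 92.3 and 95.6 CPM against 98.3, 96.4 and 100.2 CPM (-0.05, SE 0.10). Chordc1 had the longest exact run and a smaller fold change (-0.69) than Hspa1a or Hspa1b. Those genes each held a single exact pair, beginning 104 bases before the start, and imperfect units beside it were not counted. Dnajb1 and Cacybp were called lower with no match in their windows, which says no more than that these letters were not found there. Hsp90aa1, Hsp90ab1, Hspa8, Hspa9, Hspa13, Hspb2, Cryab, Bag4, St13 and Hsf1 had no entry in the table.

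**Figure D4:**
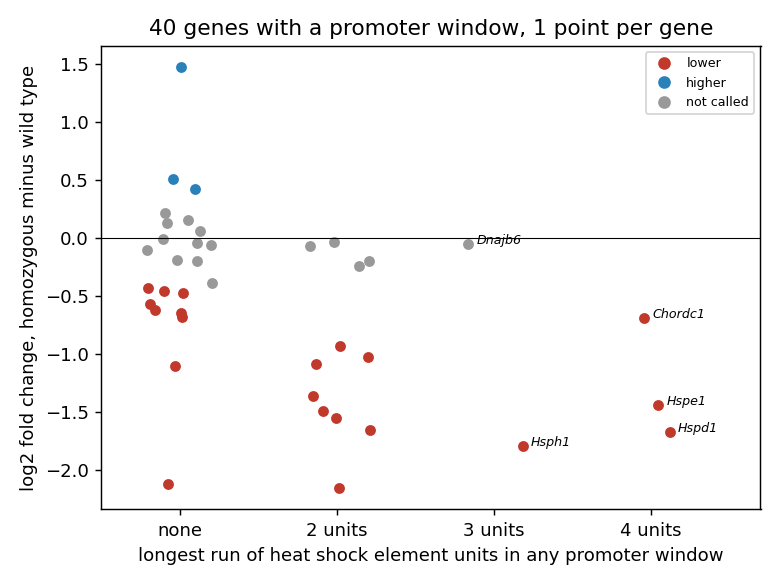
Log2 fold change (homozygous minus wild type, y axis) of the 40 genes with a promoter window, coloured by call. The x axis gives the longest run of heat shock element units found in any of their windows, searched for up to 4 units. The longer run of Chordc1 therefore sits at 4 units. Points are spread sideways for sight, and Dnajb6 sits near 0 at 3 units while Hsph1, Hspe1 and Hspd1 lie at -1.44 or below.

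A further 88 chaperone genes outside these 50 were listed from the same pathways, with earlier results known but not for how they moved, and 85 of them were tested. 7 were called lower and 2 higher, against 11.5% and 9.67% of all tested genes, with a median log2 fold change of -0.08. Of 16 chaperones of the endoplasmic reticulum, 2 were called lower: Pdia4 at 66.8, 69.5 and 68.2 against 83.5, 93.9 and 82.7 CPM (adjusted p = 0.0403 by edgeR's quasi-likelihood test) and Hsp90b1, the HSP90 of that compartment, at 414, 395 and 388 against 490.2, 531 and 546 CPM (adjusted p = 0.0418). Hspa5, the HSP70 of that compartment, was not called at -0.28 (SE 0.15). Among 14 genes of the cytosolic folding chamber TRiC and its helper prefoldin, Cct3 alone was called, at -0.38 (adjusted p = 0.0479).

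Of 22 further HSP40 genes, 1 was called lower, Dnajc25 at -0.55 (adjusted p = 0.0458). Of 16 further HSP90 co-chaperones, 2 were called lower, Ahsa2, a relative of Ahsa1, at -0.63 (adjusted p = 0.00813) and Ppid, the cyclophilin CYP40, at -0.40 (adjusted p = 0.0351). Fkbp5, the immunophilin FKBP51 and a textbook glucocorticoid receptor target, was called higher at 202, 111 and 179.6 CPM in the homozygous libraries against 22.8, 29.5 and 39.0 CPM in the wild-type libraries. Its log2 fold change was 2.43 (SE 0.25, adjusted p = 0.000578 by edgeR's quasi-likelihood test), higher in 3 of 3 mutant libraries, while that of its relative Fkbp4 was -1.09. Of 13 further mitochondrial genes, Clpx, a subunit of the matrix protease ClpXP, was called higher at 0.43 (adjusted p = 0.0259). Of 7 further small heat shock, HSP70 and heat shock factor genes, 4 were tested and Hspb11, an intraflagellar transport protein despite its name, was called lower at -0.80 (adjusted p = 0.0207). The number of these genes called lower was 1 on leaving out homozygous replicate 1 or 3 or wild-type replicate 1 or 2, 2 on leaving out wild-type replicate 3, and 5 on leaving out homozygous replicate 2. The number called higher was 1 on leaving out homozygous replicate 1 or 3 or wild-type replicate 1, and 6 on leaving out homozygous replicate 2. Fkbp5 was called in each of those fits.

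20 of the 50 genes share exonic bases with another gene in the files. Among the genes called lower these include the overlaps of Hspa1a with Gm20481 (564 bases), Dnaja1 with Smu1 (608 bases) and Hspd1 with Hspe1 (112 bases) on opposite strands, and of Hspa8 with 3 small nucleolar RNA genes on its own strand. No source used here says whether counting took strand into account, so these counts are uncertain to that extent. Hspa1l, which was not called, shares 1778 of its 2472 exonic bases with the antisense gene Gm10501, Stub1 shares 1084 of 2561 with Jmjd8, and Bag4 shares 1042 of 7032 with Gm17484.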

How the data were processed

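Raw read counts per Ensembl gene were deposited by the authors, 1 file per library, from stranded, ribosomal RNA-depleted total RNA per the labels' protocols. Per the submitters' processing notes, the tools were Trimmomatic 0.32, STAR 2.5.2b and HTSeq 0.6.1 with build mm10. No source used here states their settings, the strand option or the annotation. Of 39059 genes, 38861 matched GENCODE M21 on GRCm38, the assembly of mm10. Summary lines (45.0 to 49.8% of all reads) were left out. Gene totals were 7350574, 9552751 and 7234298 for homozygous and 8426578, 6613636 and 7936471 for wild-type replicates 1 to 3, and depth limits the low genes most. Libraries of 1 genotype differed by more than counting error (chi-square per gene of 9.16 to 25.1).

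Counts were fitted in R 4.3.3 with edgeR 4.0.16 (filterByExpr with minimum count 10 and total 15, TMM, quasi-likelihood test without covariates) and adjusted over 14099 genes by Benjamini-Hochberg at 0.05. The biological coefficient of variation was 0.162 (common value). CPM are on TMM-scaled totals, TPM use merged exon lengths, errors of levels are SD over 3 libraries, and a negative log2 fold change means a lower level in the mutants. The SE of a log2 fold change is its absolute value divided by the square root of the quasi-likelihood F statistic, so it is derived from the test.

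The 50 genes and all other lists were chosen with earlier results of these data known. Per family, the 4 called genes with the largest absolute fold change and the most abundant per length are given in every library. Hspa2, Dnajc7, Hspa9, Hsf2 and Dnajb6 are given in every library too, outside that rule. Per other chaperone list, called members are named, and Hspa5, the immediate early genes, Pax7, Col3a1 and Lep were singled out after their values were seen. Alternatives were DESeq2 size factors, library totals, the DESeq2 1.42.0 Wald test, no filter, 1 CPM in 3 libraries, a replicate block, a null of 1.5-fold change, a yes-or-no covariate for high Y-linked reads, omission of each library and omission of both libraries numbered 2. Promoter windows came from the RefSeq table on GRCm38.p6, with 55 windows matched by symbol to 40 of the 50 genes.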

Additional observations from a re-analysis of the deposited data

How the results depend on the processing

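All 27 genes called lower kept a negative fold change in each of the 15 alternative fits. 11 of them were called lower in every fit (Hspa1a, Hspa1b, Hsph1, Hsp90aa1, Dnaja4, Dnajb1, Dnajb4, Hspd1, Hspe1, Cacybp and Fkbp4), and 20 in every fit that left out 1 library. Bag2 was lost in most fits, and Hspa13 and Ptges3 in 5 of the 6 that left out 1 library. Over the fits without 1 library, 1576 to 4002 genes were called in all, 21 to 25 of the 50 genes lower and 2 to 3 higher, and 1 to 5 of the other chaperone genes lower and 1 to 6 higher, against 2980, 27, 3, 7 and 2 with all libraries. Among these fits, the most genes in all were called without homozygous replicate 2. Against a null of 1.5-fold change, the test called 533 genes in all, 11 of the 50 lower and 1 higher, and of the other chaperone genes 0 lower (edgeR's glmTreat, 0 also at an unadjusted p under 0.05, while the DESeq2 Wald test against no change called 4) and 1 higher. With a yes-or-no covariate for high Y-linked reads, 1932 genes were called in all, 20 of the 50 lower, and 1 of the other chaperone genes lower and 1 higher. Library totals alone called 4 of the other chaperone genes lower, and no filter called 4 higher. Without both libraries numbered 2, 3 of the other chaperone genes were called lower and 5 higher, 23 of the 50 lower and 3858 genes in all. The cause of these shifts was not tested.

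Same-numbered libraries did not deviate together over all genes (correlations of -0.04, 0.02 and -0.10). These values cannot tell whether same-numbered libraries were handled together, which was not tested. Homozygous replicate 2 and wild-type replicate 2 shared a high level of Gm42418 (13027 and 13900 CPM on unscaled gene totals). A replicate block called 2437 genes in all, 23 of the 50 lower and 2 higher, and 2 of the other chaperone genes lower and 1 higher. Depth limits Hspa1l, Bag2, Hspbp1 and, in wild type, Hspb7 most, with means under 13 CPM.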
